A study of Homo sapiens with 16 samples.

Results

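CCL2, CCL7, CCL8, CCL11 and CCL13 encode the monocyte chemoattractant proteins and eotaxin, a family of CC chemokines whose genes lie side by side on human chromosome 17. They are 5 of the 40663 gene symbols measured by bulk RNA-seq in the colon fibroblast line Ccd18-Co (16 libraries), and were matched by symbol. The members were selected on the falls of CCL11 and CCL2 under belinostat against vehicle, which were already known, so every value of the 5 genes under belinostat is a description, with no p given and nothing read from how many passed a threshold.

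All 4 groups held 4 libraries of this 1 line, and all received a compound or its DMSO vehicle for 5 days, with RNA taken 2 weeks later. Unstimulated cells saw DMSO and no cytokine. The other groups had first been pulsed repeatedly, 72 h at a time with 96 h of recovery, with a mix of IL-1B (0.1 ng/ml) and TNF, IL-17A and OSM (10 ng/ml for each of these) by the labels, and then rested for 1 week. The study's methods text names a lower IL-1B concentration and fewer replicates than the labels, which were followed here. They were next given DMSO (called vehicle here), 250 nM belinostat, which inhibits histone deacetylases, or 10 µM GSK-J4, which blocks enzymes that remove methyl groups from H3K27. Both doses are those of the labels. The paper gives a higher belinostat concentration for its assays unless stated otherwise, and a lower GSK-J4 concentration in its CXCL5 secretion screen. No group received a compound without cytokines, so a compound's action on unpulsed cells cannot be read from these libraries. The libraries held 14.4 to 19.5 M estimated counts. All 10 fibroblast markers were detected in every group and summed to between 26833 and 35497 CPM (counts scaled to a library total of 1e6) in a library. The 9 immune cell markers summed to at most 42.2. CD68 and CD14 carried most of this immune sum, while CD3E was at 0 throughout.

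CC chemokines are small secreted proteins that bind G protein-coupled receptors on leukocytes and draw them along a gradient. CCL2, CCL7, CCL8 and CCL13 attract monocytes, largely through CCR2, and CCL7, CCL8 and CCL13 also engage further CC receptors. CCL11, or eotaxin, acts mainly through CCR3 on eosinophils, a cell type abundant in the gut wall. Fibroblasts transcribe these genes in response to TNF and IL-1 through NF-kB and AP-1, and CCL11 also in response to IL-4 and IL-13 through STAT6.

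In the GENCODE annotation of GRCh38 the 5 genes occupied 103.3 kb of chromosome 17, all on the plus strand, each with 3 exons in its canonical transcript and none overlapping another annotated gene. CCL2 lay at chr17:34255274-34257208. CCL7 followed 13.01 kb further at chr17:34270221-34272242, and CCL11 another 13.5 kb on at chr17:34285742-34288334. CCL8, at chr17:34319435-34321402, was separated from CCL11 by 31.1 kb. CCL13, at chr17:34356480-34358610, came 35.08 kb after CCL8 and 1.717 kb before CCL1. Of the flanking genes chosen for comparison, the nearest on the centromeric side was ASIC2, an ion channel gene 80.31 kb from CCL2. Other annotated genes on that side were not searched.

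RefSeq promoters (GRCh38.p14, 250 bases before to 50 after the start) were available for 3 of the 5 members, CCL7, CCL8 and CCL13. The 250 bases before the start are shown for these 3. No promoter was available for CCL2 or CCL11, whose falls were already known when the members were selected. Capitals mark the TATA box TATAAAA, the AP-1 motif TGANTCA and the STAT motif TTCNNNGAA, all searched on both strands.
CCL7 promoter, chr17:34269971-34270220, plus strand: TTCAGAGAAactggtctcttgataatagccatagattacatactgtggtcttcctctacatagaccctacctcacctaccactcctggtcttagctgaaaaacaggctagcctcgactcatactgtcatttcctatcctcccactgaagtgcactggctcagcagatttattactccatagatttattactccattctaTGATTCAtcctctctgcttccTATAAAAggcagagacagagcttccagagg
CCL8 promoter, chr17:34319185-34319434, plus strand: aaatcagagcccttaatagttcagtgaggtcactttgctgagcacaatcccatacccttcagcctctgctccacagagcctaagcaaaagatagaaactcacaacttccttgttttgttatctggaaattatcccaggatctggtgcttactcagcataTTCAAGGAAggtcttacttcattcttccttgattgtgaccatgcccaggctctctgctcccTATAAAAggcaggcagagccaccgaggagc
CCL13 promoter, chr17:34356230-34356479, plus strand: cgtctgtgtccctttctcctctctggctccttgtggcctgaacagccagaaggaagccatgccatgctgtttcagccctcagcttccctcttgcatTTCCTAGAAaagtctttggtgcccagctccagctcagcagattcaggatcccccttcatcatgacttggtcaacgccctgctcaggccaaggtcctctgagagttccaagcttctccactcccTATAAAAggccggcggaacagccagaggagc

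The 3 promoters shared a TATAAAA box at almost the same place. Its first base was at position -30 in CCL7 and CCL8 and at -31 in CCL13, counted from the start, and the box occurred in 4.52% of the 35116 promoters of the table. A TTCNNNGAA match, found in 7.66% of all promoters, was present in each of the 3, at -250 in CCL7, -91 in CCL8 and -154 in CCL13. TGANTCA, a pattern that allows any base at its centre, matched only CCL7, as TGATTCA at -51, against 7.71% of all promoters. No match was found in the 3 for an NF-kB motif (11.3% of promoters), for the STAT6 motif, which has 1 base more between its arms than the STAT motif (6.44%) or for the GC box GGGCGG (45.0%). The C/EBP motif TTNNGNAA (36.8%) matched CCL13 alone, at position 17 after the start. These are matches of letters in a window and not evidence of binding.

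The 4 detected members fell into a steep order of abundance. Per length, as CPM per kb of the canonical transcript, CCL2 stood at 92.7 ± 8.88 (SD, n = 4) in unstimulated cells and CCL11 at 8.36 ± 1.77 (SD, n = 4). CCL7 followed at 1.16 ± 0.173 (SD, n = 4), CCL8 at 0.540 ± 0.142 (SD, n = 4) and CCL13 at 0.0844 ± 0.101 (SD, n = 4). CCL2 alone therefore made up 90.2% of the length-scaled transcripts of the 5 genes in unstimulated cells, 86.8% in vehicle and 86.2% under GSK-J4. In unstimulated cells each neighbour in this order was separated from the next without overlap of libraries. CCL7 and CCL8 overlapped in vehicle (1.18 to 1.80 and 0.883 to 2.14) and under GSK-J4 (1.11 to 1.84 and 0.418 to 1.59), so their order there was not resolved.

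**Figure D1:**
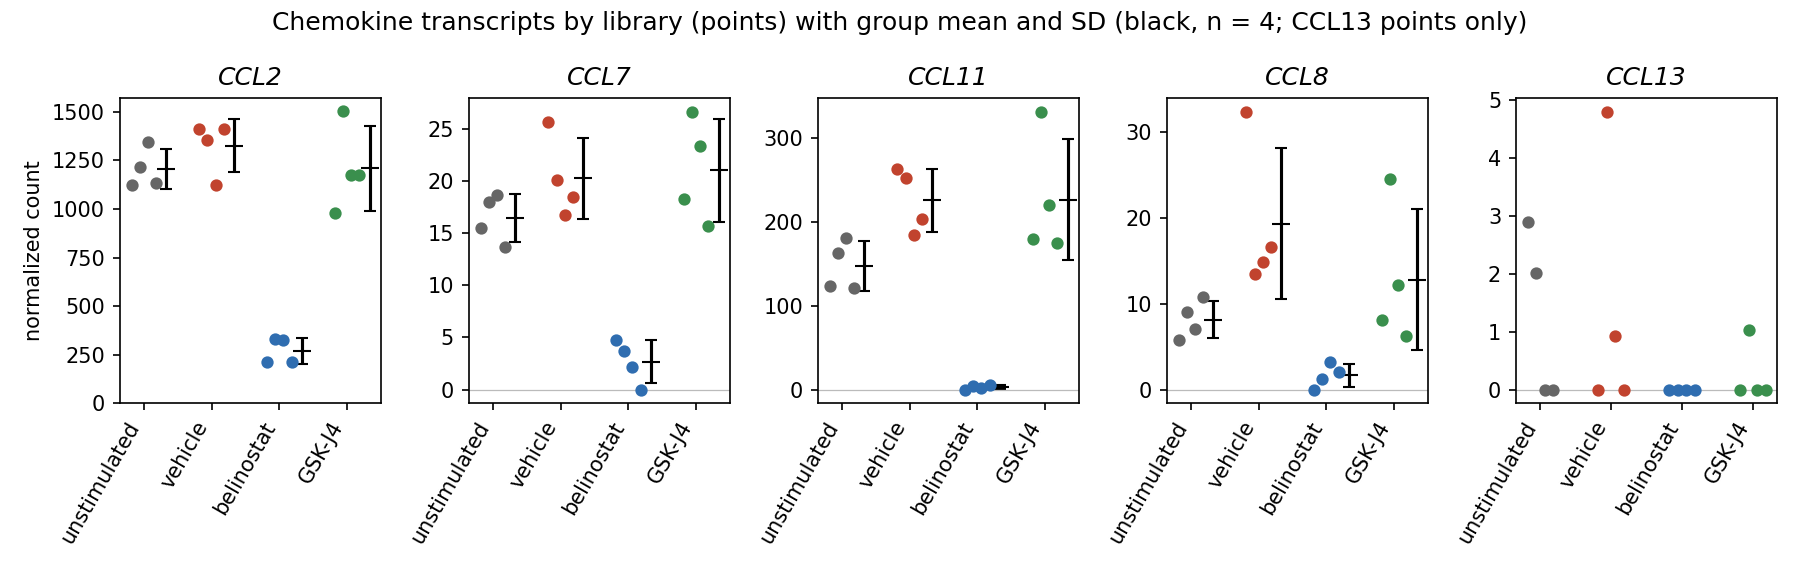
Normalized counts of the 5 chemokine genes (vertical axes, linear, a separate scale for each gene) in every library of the 4 groups, with the group mean and SD beside the points. CCL2, CCL7, CCL11 and CCL8 lie lower in all 4 belinostat libraries than in any other library, and CCL13 was at 0 in 11 of 16 libraries.

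CCL2, the main attractant of monocytes in the set, was abundant with and without cytokine pulses. Its normalized counts, which are counts divided by the library's size factor, were 1123, 1214, 1345 and 1134 in unstimulated cells. In vehicle they were 1411, 1354, 1125 and 1412, so the groups overlapped. GSK-J4 libraries gave 979, 1506, 1173 and 1176, which spanned the range of both DMSO groups. Under belinostat the 4 values were 211, 332, 326 and 215. All 4 lay well below the 979 of the lowest library outside the group.

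CCL11, the eosinophil attractant, varied over a wider ratio between groups than CCL2, CCL7 or CCL8. Unstimulated libraries held 124, 163, 181 and 121 normalized counts. Vehicle libraries held 263, 252, 184 and 204, all above the unstimulated ones, although the highest unstimulated and lowest vehicle library were only 181 and 184. With GSK-J4 the counts were 180.0, 331, 220.5 and 175, so replicate 22 stood well above the other 3. Belinostat libraries held 0.955, 4.88, 3.24 and 6.23. These correspond to 14 counts over the 4 libraries, or 0.213 CPM (95% Poisson interval 0.117 to 0.358, counting error only), where vehicle had 958 counts or 12.9 CPM.

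CCL7 and CCL8, further ligands for monocytes and other leukocytes, were expressed at a far lower level. CCL7 had 15.4, 18.0, 18.6 and 13.7 normalized counts in unstimulated cells and 25.7, 20.1, 16.8 and 18.4 in vehicle, with overlap. It had 18.3, 26.6, 23.4 and 15.7 under GSK-J4 and 4.77, 3.66, 2.16 and 0 under belinostat. The belinostat values were again below those of all other libraries, but they rest on 10 counts in total.

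CCL8 had 5.79, 9.01, 7.10 and 10.7 normalized counts in unstimulated cells and 32.4, 13.4, 14.9 and 16.6 in vehicle. All vehicle libraries were above all unstimulated ones, and replicate 13 was the highest by far. Under GSK-J4 the counts were 8.14, 24.6, 12.2 and 6.29, and under belinostat 0, 1.22, 3.24 and 2.08. Only 6 CCL8 counts were found in the belinostat libraries together.

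CCL13, the most telomeric member, was at the edge of detection. Unstimulated libraries held 3, 2, 0 and 0 counts, vehicle libraries 0, 5, 1 and 0, and GSK-J4 libraries 0, 1, 0 and 0. No count was found in the 4 belinostat libraries, and a floor of 3 counts over the group, the one-sided 95% limit that 0 counts allow, corresponds to 0.0457 CPM. The groups cannot be told apart at this depth, and DESeq2 gave CCL13 no adjusted p in any contrast.

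The first tested question was whether cytokine pulses left a mark on the cluster after the weeks without cytokine. By DESeq2, 0 of the 4 members tested passed the threshold of an adjusted p under 0.05 in vehicle against unstimulated cells, where 1.79% of all genes tested did. At an unadjusted p under 0.05 there were 2, CCL11 and CCL8, and edgeR called 0. CCL11 was 1.53-fold higher on fitted values (log2 fold change 0.62 ± 0.22 SE, DESeq2 adjusted p = 0.143, 95% interval 0.19 to 1.04). CCL8 was 2.37-fold higher (1.25 ± 0.51 SE, DESeq2 adjusted p = 0.302, interval 0.25 to 2.24). Both were higher in 4 of 4 vehicle libraries than in any unstimulated library, as were 3.86% of all genes tested, yet neither was called after correction over 15732 genes. When only these 2 groups were fitted, CCL11 passed (DESeq2 adjusted p = 0.0199), and over all alternatives its adjusted p ran from 0.0199 to 0.461. That of CCL8 ran from 0.208 to 0.803, and without vehicle replicate 13 its log2 difference was 0.88. For CCL7 the log2 difference was 0.30 (interval -0.35 to 0.95) and for CCL2 0.14 (interval -0.14 to 0.42), with DESeq2 adjusted p = 0.924 and 0.917. The vehicle libraries also entered the contrast from which the members were chosen.

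GSK-J4 left the members without a called change. Against vehicle, where 1.82% of genes were called, 0 of 3 members tested passed in DESeq2, 0 had an unadjusted p under 0.05, and edgeR called 0. The log2 differences were 0.01 for CCL11 (interval -0.41 to 0.42), -0.13 for CCL2 (interval -0.41 to 0.15) and 0.05 for CCL7 (interval -0.58 to 0.69). CCL8 differed by -0.59 (interval -1.55 to 0.37) and received no adjusted p because of its low mean. Without GSK-J4 replicate 22, the library highest in its group for all 4 detected members, the CCL11 difference was -0.23. In GSK-J4 against unstimulated cells, where 5.97% of genes were called, 0 of 4 members passed in DESeq2, 1 had an unadjusted p under 0.05, and edgeR called 0. CCL11 was that gene, 1.54-fold higher (log2 0.62 ± 0.22 SE, DESeq2 adjusted p = 0.0609), and it crossed the threshold when unstimulated replicate 3 (0.74), GSK-J4 replicate 21 (0.72) or GSK-J4 replicate 24 (0.73) was left out. Without GSK-J4 replicate 22 the value was 0.38, and over all alternatives the adjusted p ran from 0.0300 to 0.378. In that contrast CCL8 differed by 0.65 (interval -0.38 to 1.68), CCL7 by 0.35 (interval -0.30 to 1.00) and CCL2 by 0.01 (interval -0.28 to 0.29).

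**Figure D2:**
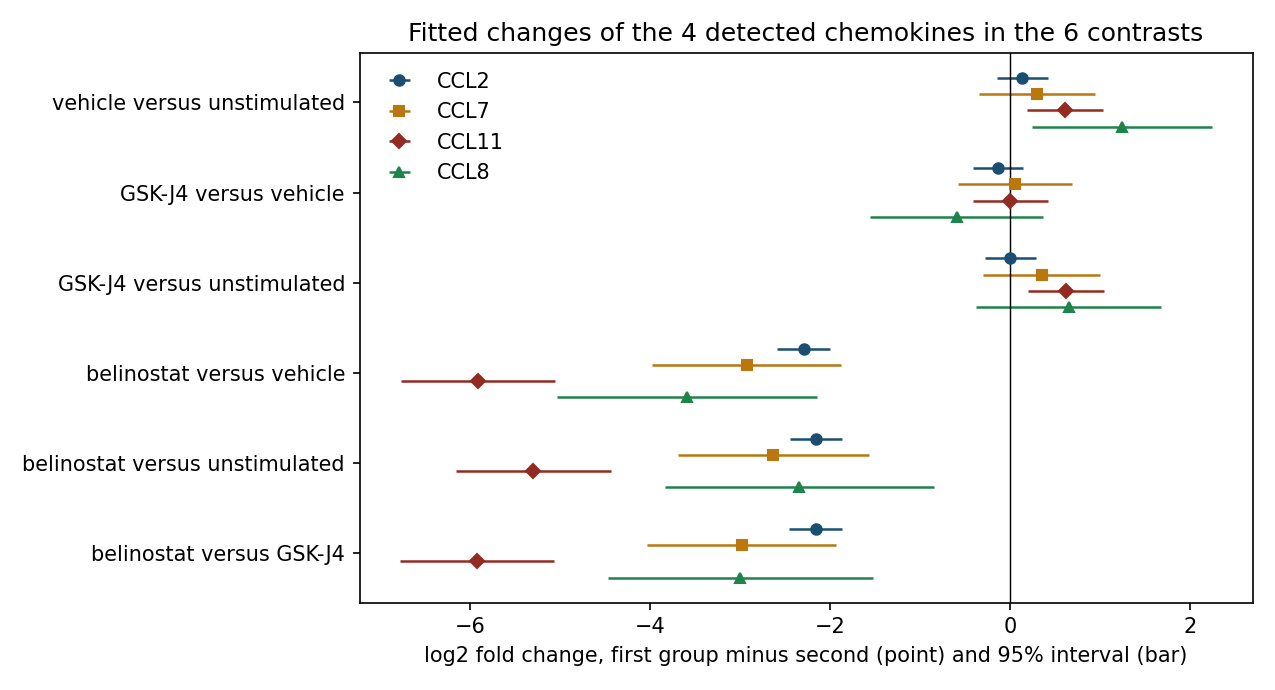
Fitted log2 fold changes of CCL2, CCL7, CCL11 and CCL8 (horizontal axis, first group minus second) with 95% intervals, for each of the 6 contrasts. In the 3 contrasts without belinostat the points lie between -0.59 and 1.25, and in the 3 with belinostat between -5.92 and -2.16.

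Under belinostat the detected members were all far lower than in vehicle, in the contrast on which they were chosen. CCL11 differed by a log2 of -5.92 ± 0.44 SE, a fitted fold of 60.4. CCL8 stood 12.03-fold lower (-3.59 ± 0.74 SE), CCL7 7.61-fold lower (-2.93 ± 0.54 SE) and CCL2 4.90-fold lower (-2.29 ± 0.15 SE). All 4 members tested met the call rule on the lower side, beside 3.01% of all genes, and all 4 had every belinostat library below every vehicle library, beside 5.81% of genes. Nothing is read from these counts, since the choice of members used the contrast. In bulk RNA, fewer cells of a type and less RNA per cell cannot be told apart.

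The members were also lower in the same libraries than in the other groups, which is again a description. Against unstimulated cells, which had never met cytokines, the log2 values were -5.30 ± 0.44 SE for CCL11, -2.63 ± 0.54 SE for CCL7, -2.34 ± 0.76 SE for CCL8 and -2.16 ± 0.15 SE for CCL2. All of these differences were smaller than those against vehicle, with CCL8 at 5.07-fold and CCL11 at 39.4-fold. Against GSK-J4 the values were -5.92 ± 0.44 SE for CCL11, -3.00 ± 0.75 SE for CCL8, -2.98 ± 0.54 SE for CCL7 and -2.16 ± 0.15 SE for CCL2. The 3 contrasts share the belinostat libraries that entered the choice of members.

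The composition of the cluster differed as well. CCL11 counts were 10.7% to 13.5% of the CCL2 counts of the same library in unstimulated cells, 14.4% to 18.6% in vehicle and 14.9% to 21.96% under GSK-J4. In belinostat libraries they were 0.453% to 2.90%. Per length, CCL2 made up 97.6% of the 5 genes' transcripts under belinostat and CCL11 1.04% ± 0.750 (SD, n = 4), compared with 10.9% ± 1.12 (SD, n = 4) in vehicle. The summed length-scaled level of the cluster was 21.4 ± 5.16 (SD, n = 4) CPM per kb under belinostat and 118.2 ± 12.7 (SD, n = 4) in vehicle. In belinostat libraries CCL7, CCL11 and CCL8 overlapped per length, at 0 to 0.338, 0.0545 to 0.357 and 0 to 0.215, and the order seen in the other groups was not resolved.

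**Figure D3:**
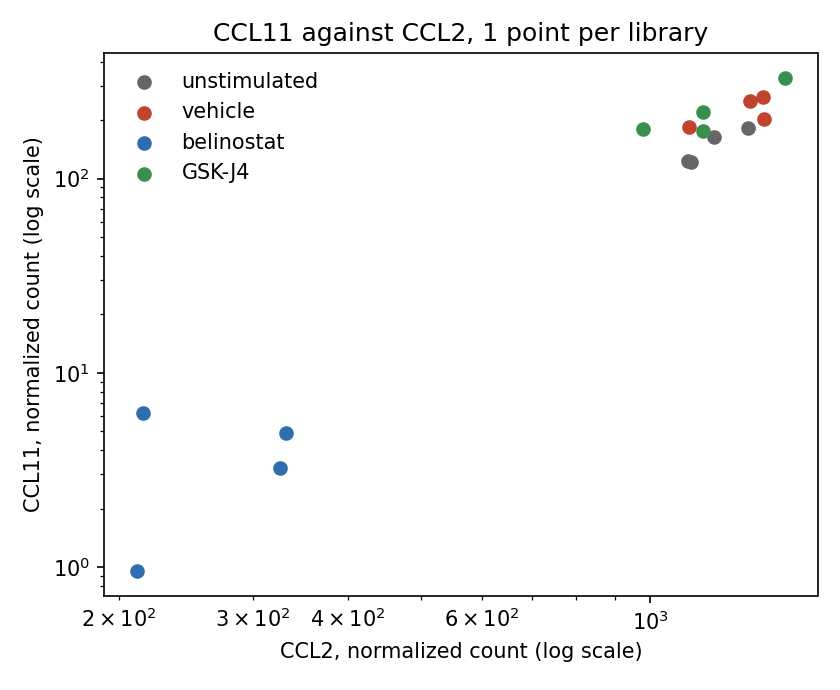
CCL11 against CCL2 in each of the 16 libraries, both as normalized counts on log axes. The 12 libraries without belinostat lie together, with CCL11 between 121 and 331, and the 4 belinostat libraries lie apart at CCL11 of 0.955 to 6.23 and CCL2 of 211 to 332.

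Within groups the members also varied together. This was read over the 12 libraries without belinostat, as log2 of the normalized count plus 1, after subtracting each group's mean. Pearson's r was 0.903 for CCL7 with CCL11 and 0.848 for CCL2 with CCL11. The other 4 pairs lay between 0.594 and 0.733. Replicate 22 of GSK-J4 was the highest of its group for CCL2, CCL7, CCL11 and CCL8, and vehicle replicate 13 the highest for CCL7, CCL11 and CCL8. These r values are descriptions, since genes of a library share its depth and its culture.

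The genes most like CCL2 across the 16 libraries, of 11741 genes with a mean of at least 50 normalized counts, were CCL11 (Pearson's r 0.972), FGFR1 (0.952), LRRN4CL (0.947), METAP1 (0.942) and APCDD1 (0.940). For CCL11 they were CCL2 (0.972), APCDD1 (0.970), LRRN4CL (0.970), ASPH (0.950) and FGFR1 (0.940). APCDD1, an inhibitor of Wnt signalling, averaged 668 normalized counts in unstimulated cells, 1098 in vehicle, 184 under belinostat and 1222 under GSK-J4. FGFR1, a fibroblast growth factor receptor, had a much narrower range, from 5923 under belinostat to 7081 in unstimulated cells. All of these genes had their lowest group mean under belinostat, and the r values are descriptions over libraries that share their cell line. The 16 libraries include those of belinostat and vehicle, on which the falls of CCL11 and CCL2 were already known. A high r between CCL2 and CCL11 was therefore given by the choice of members and is not a result.

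The tested genes of a chosen list on either side of the cluster differed by at most 0.33 on the log2 scale between belinostat and vehicle. Of 12 flanking genes, 8 were tested in belinostat against vehicle, and 1 was called lower, beside 3.01% of all genes. It was PSMD11, a proteasome subunit gene 1772 kb centromeric of CCL2, whose log2 value fell by 0.17 (SE 0.05, DESeq2 adjusted p = 0.00654). The median log2 fold change of the 8 was -0.03, and that of all genes tested 0.00. Against unstimulated cells 2 of the 8 were called lower, beside 4.54% of all genes. They were MYO1D, a myosin, which fell by 0.47 (SE 0.11, DESeq2 adjusted p = 0.00129), and PSMD11, which fell by 0.14 (SE 0.05, DESeq2 adjusted p = 0.0421). CCL1 had no count in any library, and ASIC2, SPACA3 and TMEM132E averaged under 1 normalized count in every group. Of the genes listed, those measured nearest the cluster were therefore CCT6B at 569.2 kb (log2 -0.33 ± 0.22 SE, DESeq2 adjusted p = 0.559) and ZNF830 at 602.9 kb (0.03 ± 0.11 SE, DESeq2 adjusted p = 0.946). In vehicle against unstimulated cells MYO1D fell by 0.67 (SE 0.11, DESeq2 adjusted p = 2.11e-06). In GSK-J4 against vehicle 0 of 8 flanking genes were called by DESeq2 or edgeR, and 0 had an unadjusted p under 0.05.

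**Figure D4:**
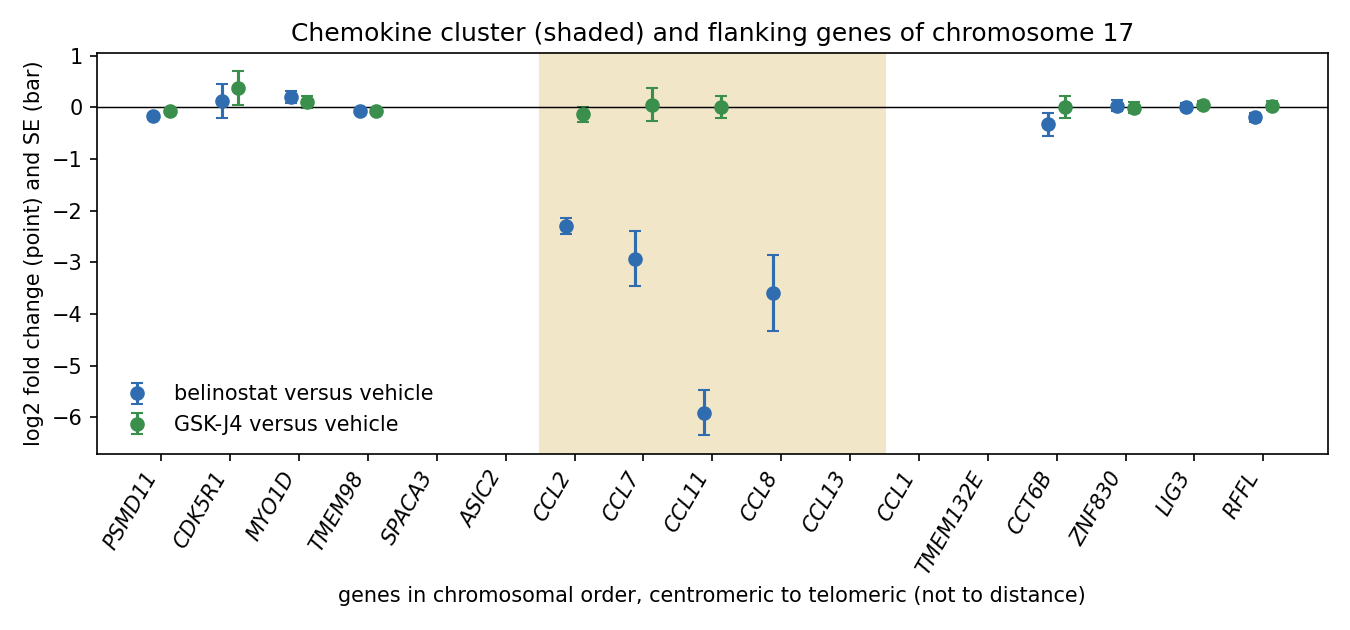
Log2 fold changes with SE for the cluster members (shaded) and their flanking genes in chromosomal order, not to distance, for belinostat and GSK-J4 against vehicle. Genes without an adjusted p have no point. Under belinostat the 4 members lie between -5.92 and -2.29 and the 8 tested flanking genes between -0.33 and 0.21. Under GSK-J4 the highest flanking gene is CDK5R1, at 0.38.

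Other CC chemokines were scarcely transcribed by these cells. Of the 10 genes of the MIP group on the same chromosome arm, such as CCL3, CCL4 and CCL5, only CCL5 was tested in belinostat against vehicle (8.40 normalized counts in vehicle and 6.42 under belinostat), and it was not called. Of 10 CC chemokines on other chromosomes, 2 were tested and 0 called by DESeq2 or edgeR, with 0 at an unadjusted p under 0.05. These were CCL28, which averaged 13.1 normalized counts in vehicle and 11.5 under belinostat, and CCL22, at 10.1 and 6.52. CCL7 and CCL8 averaged 20.3 and 19.3 in vehicle. Most of the other genes in these lists had too few counts for their response to be compared with that of the cluster.

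Most of the 10 CC chemokine receptor genes listed were at or near 0, and those measured had low counts. The list also holds receptors of other CC chemokines, CCR10 and ACKR4 among them, so its counts do not concern the cluster ligands alone. CCR10 averaged 20.2 normalized counts in vehicle and 21.1 under belinostat, and CCR1 13.8 and 10.4, which is the count range of CCL7 and CCL8 in vehicle. CCR2, CCR8 and ACKR1 were at 0 in all vehicle and belinostat libraries, and CCR3, the eotaxin receptor, averaged 1.63 normalized counts in vehicle and 0.305 under belinostat. Of 10 receptor genes 3 were tested in belinostat against vehicle, and 0 were called by DESeq2 or edgeR, with 0 at an unadjusted p under 0.05. ACKR4, which scavenges other CC chemokines, averaged 12.2 in vehicle and 19.4 under belinostat (log2 0.67 ± 0.40 SE, DESeq2 adjusted p = 0.457).

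Enzymes known to trim these chemokines changed in part in all 3 comparisons with vehicle. MMP1 and MMP3, which can cleave monocyte chemoattractant proteins, rose in vehicle against unstimulated cells by 1.45 ± 0.31 SE and 1.60 ± 0.36 SE on the log2 scale (DESeq2 adjusted p = 0.000432 and 0.00158). These were 2 of 5 in the list, where 1.79% of all genes tested were called in either direction. Under belinostat 4 of 5 fell against vehicle, where 3.01% of all genes tested did, and edgeR called 2. MMP1 fell by 1.58 (SE 0.31, DESeq2 adjusted p = 2.25e-05), from 819 to 275 normalized counts. DPP4, which removes the terminal dipeptide of CCL11, fell by 0.25 (SE 0.06, DESeq2 adjusted p = 0.00371), and MMP14 and MMP2 fell by 0.19 each. edgeR made neither of these calls, and that of MMP14 was lost in 7 of 13 alternatives. With GSK-J4 against vehicle, DPP4 was instead the 1 called gene of the list, where 1.82% of all genes tested were called. It rose by 0.25 ± 0.06 SE (DESeq2 adjusted p = 0.00760), from 5642 to 6727 normalized counts. That call was lost with edgeR and without vehicle replicate 15 or GSK-J4 replicate 22. MMP3 differed by more in this contrast, 0.88 ± 0.36 SE, from 1110 to 2037 normalized counts without overlap of libraries. It was not called (DESeq2 adjusted p = 0.298).

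Part of the genes for signalling that induces these chemokines fell under belinostat. Of 14 receptor genes for inducing cytokines, 6 fell and 0 rose against vehicle, with a list median of -0.12 beside 0.00 for all genes, of which 3.01% fell. edgeR called 4 of the 14. IL1R1, the signalling receptor of IL-1, fell by 0.49 (SE 0.12, DESeq2 adjusted p = 0.000953). TNFRSF1B, a TNF receptor, fell by 0.47, IL4R, the shared receptor chain of IL-4 and IL-13, by 0.38, and IL6ST, the signal transducer of the IL-6 family, by 0.21. The IL6ST call was lost in 7 of 13 alternatives, edgeR among them, and the TNFRSF1B call in 4 that left out a library. OSMR, the oncostatin M receptor, was the 1 gene of the list called in vehicle against unstimulated cells, beside 1.79% of all genes tested. It rose by 0.19 ± 0.04 SE (DESeq2 adjusted p = 0.00239), a call edgeR did not make.

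Of 18 transcription factors of chemokine induction, 6 fell and 0 rose under belinostat against vehicle (list median -0.06), beside 3.01% of all genes that fell, while edgeR called 3. JUNB, an AP-1 subunit, fell by 0.44 (SE 0.09, DESeq2 adjusted p = 0.000132), and NFKB2, an NF-kB subunit, fell by 0.32 (SE 0.08, DESeq2 adjusted p = 0.00348). The AP-1 genes JUN and FOSL2 fell by 0.28 and 0.27, the latter not called by edgeR. In vehicle against unstimulated cells and in GSK-J4 against vehicle, 0 of the 18 were called by DESeq2 or edgeR, and 1 had an unadjusted p under 0.05 in each.

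Among 11 feedback inhibitors, 1 rose and 3 fell under belinostat against vehicle (list median -0.10), beside 3.01% of all genes that fell. SOCS1, a brake on JAK-STAT signalling, fell by 0.91 (SE 0.19, DESeq2 adjusted p = 0.000119), from 140 to 74.4 normalized counts. It rose under GSK-J4 against vehicle by 0.83 ± 0.18 SE (DESeq2 adjusted p = 0.000670), to 248.0. DUSP1, a phosphatase of MAP kinases, rose by 0.45 under belinostat, whereas ZFP36, which destabilises cytokine mRNAs, and SOCS3 fell by 0.31 and 0.26. The SOCS3 call was lost in 5 alternatives that left out a library. TNFAIP3, an inhibitor of NF-kB signalling, was the 1 gene of the list called in vehicle against unstimulated cells, beside 1.79% of all genes tested. It rose by 0.67 ± 0.15 SE (DESeq2 adjusted p = 0.00137).

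Some markers of other cell types were higher under belinostat. The summed level of 8 epithelial markers was 113.9 to 198.8 CPM in belinostat libraries and 91.0 to 112.8 in vehicle libraries. KRT18 and KRT8, keratins that carried most of this sum, rose under belinostat by 0.84 ± 0.16 SE and 0.36 ± 0.08 SE (DESeq2 adjusted p = 1.11e-05 and 0.000258), while KRT20 was at 0 and EPCAM averaged 2.52 normalized counts there. Of 10 fibroblast markers 3 fell, beside 3.01% of all genes that fell. Among them were FN1, by 0.34 (SE 0.06, DESeq2 adjusted p = 6.51e-07), and COL1A1, by 0.29 (SE 0.08, DESeq2 adjusted p = 0.00919, not called by edgeR). The summed level of the 10 was 26833 to 31409 CPM under belinostat and 31825 to 33214 in vehicle. The 6 endothelial markers summed to 491.6 to 583.6 CPM under belinostat and 437.2 to 506.3 in vehicle, with CDH5 at 0 in both. TEK, a receptor of angiopoietins that carried most of this sum, rose by 0.18 (SE 0.06, DESeq2 adjusted p = 0.0451), a call lost in 10 of 13 alternatives. The 9 immune markers summed to 17.4 to 42.2 CPM under belinostat and 17.1 to 30.5 in vehicle, with CD3E and TYROBP at 0 in both. Of these, 2 (CD68 and CD14) were tested in belinostat against vehicle, and 0 were called by DESeq2 or edgeR. CD68 averaged 264 normalized counts in vehicle and 257 under belinostat. CD14, a monocyte coreceptor for endotoxin, rose under belinostat against unstimulated cells by 1.45 ± 0.35 SE (DESeq2 adjusted p = 0.00113) and averaged 195.7 normalized counts under belinostat, 140.9 in vehicle and 71.8 in unstimulated cells. The part of these shifts in the chemokine values was not tested.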

How the data were processed

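The 16 Ccd18-Co libraries of bulk RNA-seq were put into 4 groups of 4 by their labels. The labels do not say whether replicates were independent cultures, so p-values measure the spread between these libraries, which may be technical. Per the labels, libraries were made with a NEBNext Ultra II RNA kit, the reads were checked with FastQC 0.11.9 and MultiQC 1.14, quantified with kallisto 0.48.0, and hg38 is named. The transcriptome release is not given in the sources used here. The authors deposited estimated counts per gene symbol (40663 symbols, 28% of values with decimals), not scaled to depth. CCL7, CCL8, CCL11 and CCL13 held whole values in all 16 libraries and CCL2 in 2, so reads of CCL2 were in part assigned by the estimator. The columns of the unstimulated libraries say none where the titles say DMSO.

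Here the values were rounded and fitted in DESeq2 1.42.0 (R 4.3.3), the study's named tool, in a single fit of all libraries with group as the only factor and no prior filter. The threshold for a call was 0.05 on the p adjusted by Benjamini-Hochberg over all genes tested in 6 contrasts. Intervals are 95% Wald intervals, and SE and fold changes are unshrunken. Alternatives were edgeR 4.0.16 (quasi-likelihood), TMM or total-count scaling, a filter of 10 counts in 4 libraries, fits of only the groups compared, and leaving out each library. The members and lists were chosen with earlier results of these data known. From each list, at most 4 called genes with the largest change and a mean of at least 10 normalized counts are named. Some genes outside this rule were named after their values were seen, to show what could be measured. They were CCT6B, ZNF830, CDK5R1, CCL5, CCL22, CCL28, CCR1, CCR3, CCR10, ACKR4, CD68, MMP3 under GSK-J4 and the genes listed at or near 0. Counting intervals and limits cover counting error only. Gene positions are from GENCODE v44.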

Additional observations from a re-analysis of the deposited data

Results flagged for a closer look

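Of the 20 sets formed by 5 genes and 4 groups, 2 held a library whose gap to the others exceeded Dixon's 95% limit for 4 samples. Chance alone flags about 1 set in 20 when values are normally distributed, a rate that does not hold for sets made mostly of 0. CCL8 in vehicle replicate 13 stood at 32.4 normalized counts, where the other vehicle libraries lay between 13.4 and 16.6. CCL13 in GSK-J4 replicate 22 stood at 1.02 normalized counts, which is 1 count, where the other GSK-J4 libraries had 0. A set with counts in only 1 library always exceeds the limit, and the CCL13 set under belinostat, all at 0, never can.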

How the results depend on the processing

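No paired analysis was possible because the groups share no replicate numbers. The belinostat values of the members are descriptions, and without single libraries the log2 difference from vehicle ran from -6.29 to -5.56 for CCL11, -4.18 to -3.13 for CCL8 (7 of 8 fits, as it had no adjusted p without vehicle replicate 14), -3.45 to -2.50 for CCL7 and -2.41 to -2.19 for CCL2. The number of members called in vehicle against unstimulated cells went from 0 to 1 (CCL11) with only the groups compared, and in GSK-J4 against unstimulated cells it was 0 to 1 when single libraries were left out.

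The number of genes called in vehicle against unstimulated cells went from 282 to 166 with edgeR and ranged from 182 to 297 without single libraries. In GSK-J4 against vehicle it went from 249 to 91 with edgeR and 542 with only the groups compared, and ranged from 134 to 193 without single libraries. In belinostat against unstimulated cells it went from 1436 to 866 with only the groups compared. Fits of only the groups compared, or without a library, held fewer samples, and otherwise the cause was not tested.

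Reversals concerned differences near 0 that were never called. For CCL11 in GSK-J4 against vehicle, total-count scaling gave -0.014, and leaving out single libraries gave -0.23 to 0.11. For CCL7 in that contrast leaving out single libraries gave -0.080 to 0.19. For CCL2 in GSK-J4 against unstimulated cells, edgeR gave -0.0013, total-count scaling -0.0078, and leaving out single libraries -0.12 to 0.094. Of 27 list genes called in belinostat against vehicle, 16 kept their call in every alternative, as did 4 of 6 in vehicle against unstimulated cells and 2 of 5 in GSK-J4 against vehicle, and none changed sign. At this depth CCL13, CCL8 and CCL7 rest on few counts, which limits any comparison of them among the low groups.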
